A study of Mus musculus with 4 samples.

Results

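The Slit ligands Slit1, Slit2 and Slit3 and their receptors Robo1, Robo2 and Robo3 were described in nuclei of the mouse hippocampus. The 6 genes were taken by symbol from a feature table of 32285 genes, and each was found as 1 row. Slits are secreted glycoproteins, and Robo receptors are single-pass membrane proteins of the immunoglobulin superfamily. A Slit binding to Robo1 or Robo2 repels growing axons and migrating cells, in part through srGAP proteins in the cytoplasm. Robo3 is the divergent member of the family, known for its part in midline crossing of commissural axons, and mammalian Robo3 binds Slits poorly. In adult brain the family is also known at synapses, where Robo2 has been described at the inputs of CA1 pyramidal neurons.

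All mice carried ArcCreERT2::eYFPflx, a tamoxifen-inducible Cre under the Arc gene with a Cre-dependent eYFP reporter, so the controls carry it too. The Trained group had learned active place avoidance, a task in which a mouse must avoid a shock zone, and the Untrained group had not. Each group holds 2 libraries, from 2 mice, and tissue was taken 3 days after a retention test with no recall triggered in between. Strain, age and sex are not given in the labels. Nuclei with the eYFP tag were not separated here, and the study's spatial data are not used here. The measured quantity is the number of unique molecular identifiers (UMIs, each standing for 1 captured RNA molecule) per gene and barcode, from 3' tag counting of nuclear RNA.

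Barcodes with at least 600 UMIs were used, 47110 in all and between 6019 and 16916 per library, with 4799202 to 18423764 UMIs per library. Trained replicate 1 was the smallest and shallowest library, with a median of 736 UMIs per barcode against 887 to 1079 in the other 3. A barcode was placed in a class when UMIs of that class's marker list were above chance for its depth. Of the barcodes, 31.2% passed 1 gate, 5.54% passed several and were left out as mixed (the only treatment of doublets), and 63.2% passed none. The gate cuts a continuous score: 3698 gated nuclei lay just inside the p threshold and 6673 barcodes just outside it. None of the 6 genes is in a marker list. Of 17 lists, 10 gave at least 30 nuclei in every library and are compared here: dentate granule, CA1 pyramidal, CA3 pyramidal, thalamic excitatory, inhibitory, deep-layer cortical, oligodendrocyte, oligodendrocyte precursor, astrocyte and choroid plexus. Between 2 (CA1) and 7 of the top 10 genes of each fitted class were its own markers, and choroid plexus also had 1 gene of another list there. The gate selects nuclei by these markers, so their place there is no separate test of the class names. Markers at a log2 fold over 0.5 above the mean of the other lists were 8 of 10 in dentate granule and in CA3 nuclei. They were 9 of 10 in deep-layer cortical nuclei, 8 of 9 in choroid plexus nuclei and all in the other fitted classes. Thalamic and choroid plexus nuclei show that the samples labelled hippocampus also hold neighbouring tissue, as nuclei passing the habenula gate do. Between 17 and 65 barcode sequences were shared by any 2 libraries.

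Slit2 and Slit3 each carry a gene of the microRNA miR-218 within their span, on the same strand. The mature sequences are shown because the Slit counts below are counts of these host transcripts, and RNA of this length is not read by the assay. They are RefSeq sequences of GRCm38.p6, 5′ to 3′, with the seed (bases 2 to 8) in capitals.
mmu-miR-218-5p, from both host genes: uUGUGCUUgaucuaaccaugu
mmu-miR-218-1-3p, from the copy in Slit2: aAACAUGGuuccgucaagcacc
mmu-miR-218-2-3p, from the copy in Slit3: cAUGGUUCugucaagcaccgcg
Both copies give the same 5p sequence and so share its seed, whereas the seeds of the 3p sequences differ from it and from each other.

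Robo1 and Robo2 are described targets of miR-218, so their longest GENCODE vM21 3′ UTRs were searched on the transcript strand for AAGCACA, the 7 bases that pair with the 5p seed. Robo1 held 1 match, Robo2 held 2, Robo3 1 and Slit2 2, and Slit1 and Slit3 held none. The motif is in capitals within windows of 28 bases, and the number after the gene is the position of its first base from the start of the UTR.
Robo1, 989: ttttttggttttaaAAGCACAatcacta
Robo2, 464: ttttatttggtgatAAGCACAaatctct
Robo2, 2790: gtcacggcagacccAAGCACAgcttctt
Of all UTRs within 10% of the length of that of Robo1 (1736 bases), 17.8% hold the motif, and 38.0% of those near the length of that of Robo2 (3990 bases). Near the lengths of the other members the shares were 34.5% for Slit2, 6.81% for Robo3, 10.2% for Slit1 and 3.63% for Slit3. Over all UTRs the share was 14.4%. A match of these letters is a description of the sequence and not a measured site.

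The level of each gene is given as CPM, its UMIs as a share of all UMIs in a sum, and where so named scaled between sums by the trimmed mean of M-values (TMM). Over all barcodes of at least 600 UMIs, before TMM scaling, Slit3 stood at 738 to 1017 CPM by library, Robo1 at 652 to 901 and Robo2 at 573 to 663. Slit1 stood at 110 to 201, Slit2 at 94.9 to 154 and Robo3 at 16.2 to 26.5. The genes differ in length, from 17.6 kb for Robo3 to 737.8 kb for Robo1 (GENCODE vM21, GRCm38), and nuclear RNA holds introns. Per 100 kb of gene span the levels were closer: Slit3 at 126 to 173, Robo2 at 110 to 128, Robo3 at 91.8 to 150, Slit1 at 76.9 to 140, Robo1 at 88.4 to 122 and Slit2 at 29.2 to 47.5. On that scale Slit2 was the lowest of the 6 in every library. Slit2 and Slit3 each overlap 1 other gene of the feature table on the same strand, and Slit2 also 1 on the opposite strand; reads of these could be split or shared.

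The 6 genes were unevenly spread over the classes. Each class was set against the mean of the other 9 with edgeR's quasi-likelihood test on summed UMIs, with the library as a block and Benjamini-Hochberg adjustment over 8806 genes. Of the 60 gene and class values, 36 passed an adjusted p of 0.05, and each member had at least 1 call in each direction. Of all genes tested, the share called was 31.9% in thalamic, 23.2% in dentate granule, 21.7% in inhibitory, 20.1% in CA1, 19.2% in CA3, 16.9% in oligodendrocyte, 16.1% in astrocyte, 11.7% in deep-layer cortical, 3.68% in choroid plexus and 2.46% in oligodendrocyte precursor nuclei. In the last of these no member was called. Levels in the classes below are TMM-scaled CPM, and fold changes are log2 with their standard errors (SE). Nuclei of a class come from the same 4 libraries throughout, so the libraries are the replicates (n = 4).

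**Figure D1:**
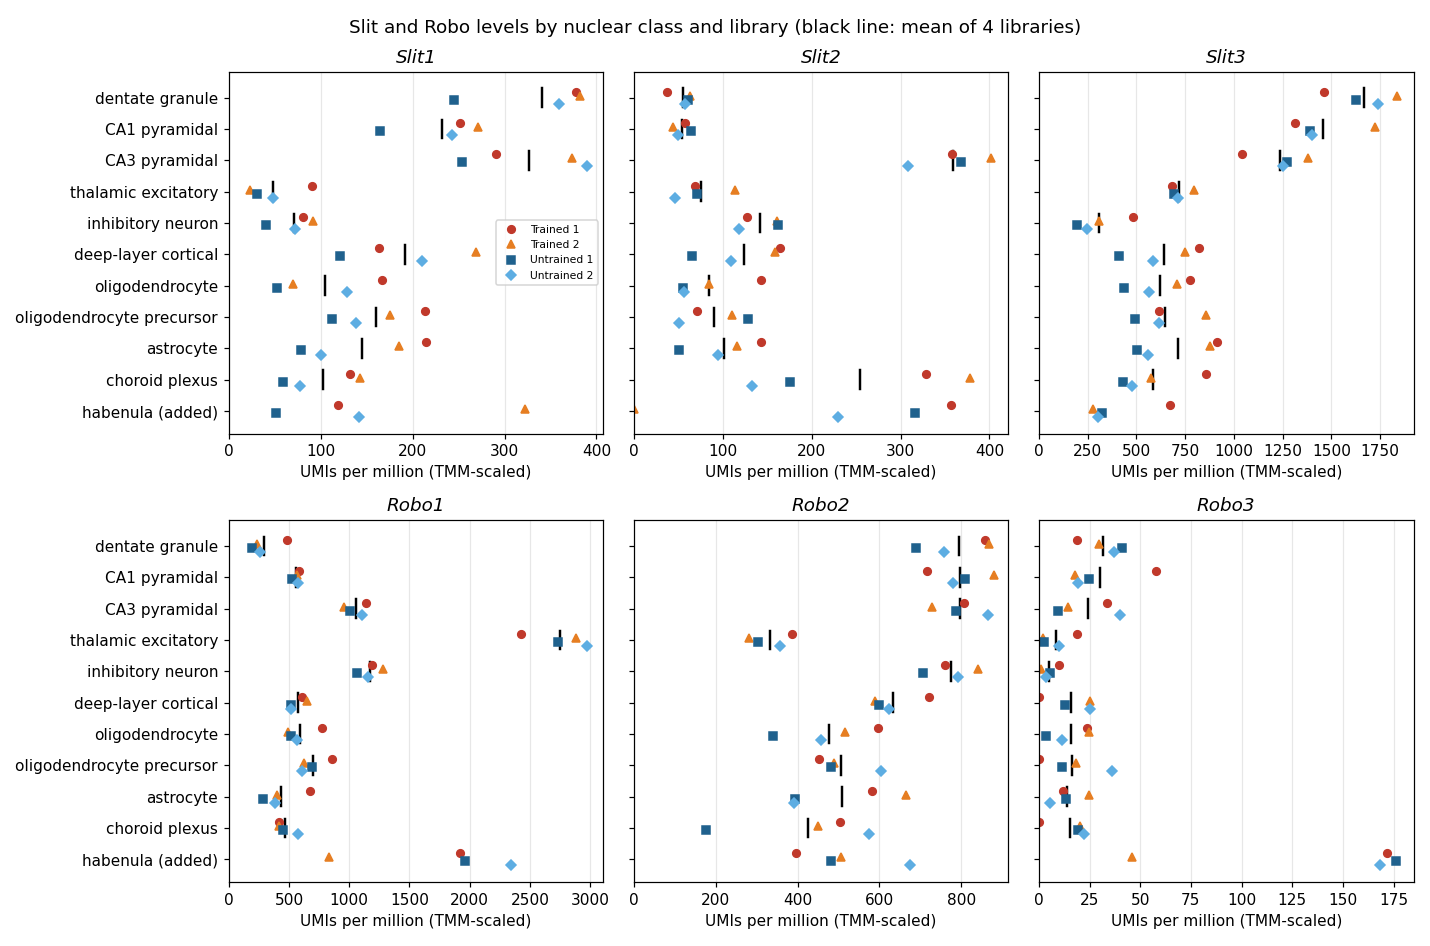
TMM-scaled CPM (horizontal axis, linear, from 0) of each Slit and Robo gene in the 10 classes and in habenula nuclei (vertical axis). Points are libraries and black lines the means of 4 libraries; Robo1 in thalamic nuclei lies between 2428 and 2970 in all 4, above every library of the other 9 classes, and the habenula row of Trained replicate 2 rests on 11 nuclei.

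Slit3, the ligand with the longest gene, was highest in the principal neurons of the hippocampus. In dentate granule nuclei, the cells that receive the main cortical input, Slit3 stood at 1462, 1839, 1626 and 1742 CPM in Trained replicates 1 and 2 and Untrained replicates 1 and 2. In inhibitory nuclei it stood at 482, 310, 198 and 248 in the same order. The groups of values do not overlap. Slit3 was 1.31 (SE 0.09) higher in dentate granule nuclei than in the mean of the other classes (adjusted p = 2.54e-26, edgeR), 1.10 (SE 0.09) higher in CA1 nuclei and 0.83 (SE 0.10) higher in CA3 nuclei. It was 1.53 (SE 0.11) lower in inhibitory nuclei (adjusted p = 1.82e-23, edgeR). In order of level, dentate granule, CA1 and CA3 neighbours did not differ beyond their spread, though dentate granule exceeded CA3 by 0.43 (SE 0.13, adjusted p = 0.00957, edgeR; 16.6% of genes called in this pair). The step from CA3 (1236 ± 142, SD, n = 4) to thalamic nuclei (721 ± 52.4) did (adjusted p = 2.85e-07, edgeR; 24.6% of genes called in this pair), and the next 5 steps down to choroid plexus did not.

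Slit1 followed the same principal neurons but split from Slit3 in the thalamus. It stood at 341 ± 64.7 CPM in dentate granule (SD, n = 4), 327 ± 65.1 in CA3 and 233 ± 47.1 in CA1 nuclei, and at 48.2 ± 30.5 in thalamic and 71.3 ± 22.0 in inhibitory nuclei. In thalamic nuclei the 4 libraries read 91.0, 22.8, 30.2 and 48.6, all below the lowest dentate granule library at 245. Slit1 was 1.41 (SE 0.10) higher in dentate granule nuclei, 1.39 (SE 0.12) higher in CA3 nuclei and 0.81 (SE 0.12) higher in CA1 nuclei, and 1.85 (SE 0.16) lower in thalamic nuclei (adjusted p = 2.31e-19, edgeR). CA3 exceeded CA1 by 0.52 (adjusted p = 0.00901, edgeR; 10.9% of genes called in this pair), while dentate granule and CA3 differed by 0.02 (SE 0.13).

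Slit2 set the hippocampal principal neurons apart, with CA3 pyramidal nuclei the highest of the 10 classes and CA1 and dentate granule nuclei the lowest. It stood at 358, 401, 369 and 309 CPM in the 4 libraries in CA3 nuclei, against 58.0, 44.3, 64.5 and 49.7 in CA1 and 37.7, 63.3, 61.2 and 57.6 in dentate granule nuclei. No CA3 library overlapped with any CA1 or dentate granule library. The difference of CA3 nuclei from the mean of the other classes was 1.91 (SE 0.13, adjusted p = 3.77e-26, edgeR), and CA1 and dentate granule nuclei were 1.07 (SE 0.19) and 0.93 (SE 0.16) lower. Choroid plexus, the epithelium that makes cerebrospinal fluid and a known source of Slit proteins, was 1.34 (SE 0.23) higher, with libraries at 329, 378, 176 and 133, and did not differ from CA3 (adjusted p = 0.135, edgeR). The choroid plexus values rest on 53, 92, 44 and 78 nuclei in the same order. Thalamic nuclei were 0.59 (SE 0.15) lower. The low end of the order was not resolved. Dentate granule nuclei did not differ from thalamic (adjusted p = 0.282, edgeR) or oligodendrocyte nuclei (adjusted p = 0.555, edgeR). Nor did CA1 nuclei (adjusted p = 0.188 and 0.363 in the same order, edgeR).

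Robo1 had the widest range of the 6 genes over the 10 classes. In thalamic excitatory nuclei it stood at 2428, 2879, 2729 and 2970 CPM in the 4 libraries, and in dentate granule nuclei at 481, 237, 196 and 258. Every thalamic library lay above every library of all other classes fitted. Robo1 was 2.25 (SE 0.08) higher in thalamic nuclei than in the mean of the other classes (adjusted p = 2.52e-52, edgeR) and 1.54 (SE 0.12) lower in dentate granule nuclei (adjusted p = 1.71e-22, edgeR). The ratio of the highest to the lowest class mean was 9.39. Robo1 was also 0.87 (SE 0.09) higher in inhibitory nuclei (1170 ± 89.1, SD, n = 4) and 0.70 (SE 0.10) higher in CA3 nuclei (1053 ± 86.1). These neighbours in rank did not differ (adjusted p = 0.440, edgeR), whereas CA1 nuclei held 561 ± 23.1. Astrocyte nuclei were 0.87 (SE 0.12) lower.

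Robo2 was the most evenly spread receptor, with a ratio of 2.40 between its highest and lowest class means. CA3, CA1, dentate granule and inhibitory nuclei held 797 ± 56.3, 796 ± 68.2, 794 ± 85.2 and 775 ± 56.9 CPM (SD, n = 4), and no step between neighbours in this order passed the test, here or further down. These 4 classes were 0.47 to 0.56 above the mean of the others. Thalamic nuclei, the highest for Robo1, were the lowest for Robo2, with 386, 282, 304 and 358 in the 4 libraries and a difference of -0.90 (SE 0.10, adjusted p = 5.19e-13, edgeR). In dentate granule nuclei, the lowest class for Robo1, Robo2 stood at 859, 869, 691 and 757. Also per length of gene span, thalamic nuclei held more Robo1 than Robo2 in every library and dentate granule nuclei more Robo2 than Robo1.

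Robo3 was near the limit of detection in most classes. In dentate granule nuclei it was read from 2, 17, 24 and 32 UMIs in the 4 libraries, or 18.9, 29.9, 40.8 and 36.9 TMM-scaled CPM, and in inhibitory nuclei from 3, 1, 6 and 3 UMIs. Dentate granule nuclei were 1.32 (SE 0.26) above the mean of the other classes (adjusted p = 2.16e-05, edgeR) and inhibitory nuclei 1.91 (SE 0.39) below (adjusted p = 4.19e-05, edgeR). The value of Trained replicate 1 in dentate granule nuclei is under the 27.3 CPM, unscaled, that 3 UMIs stand for in that library. None of the steps between neighbouring classes passed the test.

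**Figure D2:**
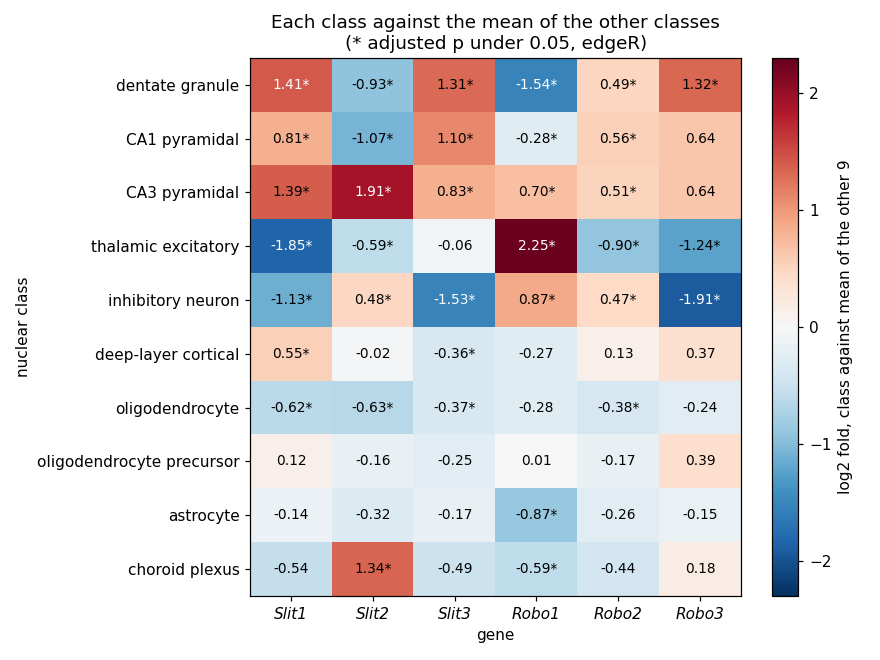
Log2 fold of each class (rows) against the mean of the other 9 classes for each gene (columns), with an asterisk at adjusted p under 0.05 (edgeR). The thalamic row reads 2.25 for Robo1, -0.90 for Robo2 and -1.85 for Slit1, and the CA3 row is positive for all 6 genes, 5 of them called.

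Habenula nuclei were added after the data were seen, because Trained replicate 2 held 11 of them against 95, 198 and 149 in Trained replicate 1 and Untrained replicates 1 and 2. The habenula, a small nucleus above the thalamus, had the highest Robo3 level of any class. It stood at 172, 46.0, 176 and 168 TMM-scaled CPM in the 4 libraries, read from 13, 1, 34 and 25 UMIs, against a mean of 18.1 over the other 10 classes. The difference was 3.35 (SE 0.28, adjusted p = 6.83e-20, edgeR), and 3.46 (SE 0.29) without Trained replicate 2. Robo1 was 1.47 (SE 0.11) and Slit2 1.40 (SE 0.20) higher, and Slit3 0.92 (SE 0.16) lower, where 7.19% of 8631 genes were called in this class. Without Trained replicate 2, in which no Slit2 UMI was read, these values were 1.58, 1.53 and -0.86.

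The share of nuclei with at least 1 UMI was compared after thinning each nucleus to 600 UMIs, with exact binomial intervals that cover counting error only. Robo1 was seen in 69.2%, 66.7%, 69.0% and 68.5% of thalamic nuclei in the 4 libraries (82.4% on average when not thinned), and in 12.4% ± 3.02 of dentate granule nuclei (SD, n = 4). Slit3 was seen in 58.5% ± 2.61 of dentate granule nuclei, where inhibitory nuclei, its lowest class, had 12.2% ± 6.10. That low share was 21.3% in Trained replicate 1 (95% interval 17.3 to 25.8) and 8.46% to 9.76% in the other 3. Slit2 was seen in 15.9% ± 3.74 of CA3 nuclei and 2.61% ± 1.43 of CA1 nuclei. Robo3 was seen in 1.44% ± 0.481 of dentate granule nuclei and in 10.5%, 8.59% and 9.40% of habenula nuclei in Trained replicate 1 and Untrained replicates 1 and 2. A Slit and a Robo were seen together in 25.8% to 32.1% of dentate granule nuclei and 23.9% to 27.0% of thalamic nuclei by library.

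Barcodes with fewer than 400 UMIs were read for comparison. They can hold free RNA as well as nuclei of low depth, and the lowest barcode deposited had 101 UMIs in Trained replicate 1 and 174 to 251 in the others. These barcodes had Robo1 at 430, 193, 169 and 228 CPM in the 4 libraries and Slit3 at 328, 135, 83.9 and 110. Trained replicate 1 was the highest for all 6 genes in these barcodes. It was also the library with the most Robo1 in dentate granule nuclei and the most Slit3 in inhibitory nuclei, the lowest class of each gene. The part of RNA from such barcodes in these class levels was not tested.

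Of the 36 calls, 10 were lost in at least 1 alternative to the main settings, and 26 were kept in every one that could be fitted. In oligodendrocyte nuclei, Slit2 (-0.63) had an adjusted p of 0.101, 0.188 and 0.104 on leaving out Trained replicate 2, Untrained replicate 1 or Untrained replicate 2. Slit3 (-0.37) had 0.0762, 0.146 and 0.0967 in the same order, Slit1 (-0.62) had 0.190 without Trained replicate 2 and 0.0822 without Untrained replicate 1, and Robo2 (-0.38) had 0.196 without Untrained replicate 1 and 0.113 without Untrained replicate 2. In deep-layer cortical nuclei, Slit3 (-0.36) had 0.0535, 0.322 and 0.0966 without Trained replicate 2, Untrained replicate 1 and Untrained replicate 2. Slit2 in inhibitory nuclei (0.48) had 0.0570 without Untrained replicate 1, and Robo3 in thalamic nuclei (-1.24) had 0.133 without Trained replicate 2 and 0.125 without Untrained replicate 1. Robo1 in choroid plexus (-0.59) had 0.183 without Trained replicate 2, and Robo1 in CA1 nuclei (-0.28) had 0.0799, 0.128, 0.102 and 0.195 on leaving out each library. Slit1 in deep-layer cortical nuclei (0.55) was lost only without the library block. The p-values above are those of leaving out a library. Over all 13 alternatives, in oligodendrocyte nuclei Slit2 missed the threshold in 6, Slit3 in 7, Slit1 in 5 and Robo2 in 4. Slit3 in deep-layer cortical nuclei missed it in 6, Robo1 in CA1 nuclei in 7 and Slit2 in inhibitory nuclei in 3. Robo1 in choroid plexus missed it in 3 of 12 and Robo3 in thalamic nuclei in 2 of 11. All p-values in this paragraph are from edgeR.

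The pattern over 40 class and library sums was compared with that of 7921 other genes (7922 for Robo3) as a description; the sums share libraries and classes. The gene most like Robo1 was Kcnc2, a fast potassium channel (Pearson r = 0.94), followed by Ctnna2 (0.92), an alpha-catenin. The gene most like Slit1 was Ryr2, a calcium release channel (0.94), and for Slit3 Gm20754 (0.93), then Ppp3ca (0.91) and Camk2a (0.90), which encode calcineurin and CaMKII subunits. Galnt17, ranked after these for Slit3 (0.89), is one of the CA1 markers. For Robo2 the closest was Dlgap2 (0.89), a postsynaptic scaffold gene. Slit2 and Robo3 had no close match, with at most 0.65 each (9530026P05Rik and Mrtfa). Between the members, class means of Slit1 and Slit3 had r = 0.74, and those of Robo1 and Robo2 had r = -0.31, over 10 classes.

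Of 47 other genes of the pathway, 39 passed the count filter in the fit over classes. Of their 390 class values, 52 were called higher and 40 lower, together 23.6% beside 16.7% of all genes over the same classes, with a median log2 fold between -0.10 and 0.11 by class, where the median of all genes lay between -0.05 and 0.04. Among the intracellular effectors, Srgap1, one of the srGAP proteins that bind the tail of Robo1, was highest and lowest in the same classes as Robo1. It stood at 279, 328, 250 and 340 CPM in thalamic nuclei and at 37.7, 19.3, 17.0 and 26.5 in dentate granule nuclei. These differences from the other classes were 1.90 (SE 0.10) and -2.25 (SE 0.18). In CA3 nuclei the genes parted: Srgap1 was 0.70 (SE 0.19) lower there, where Robo1 was higher, while Srgap2 and Srgap3 were 0.92 (SE 0.11) and 0.93 (SE 0.10) higher. Srgap2 was 0.89 (SE 0.11) lower in dentate granule nuclei.

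**Figure D3:**
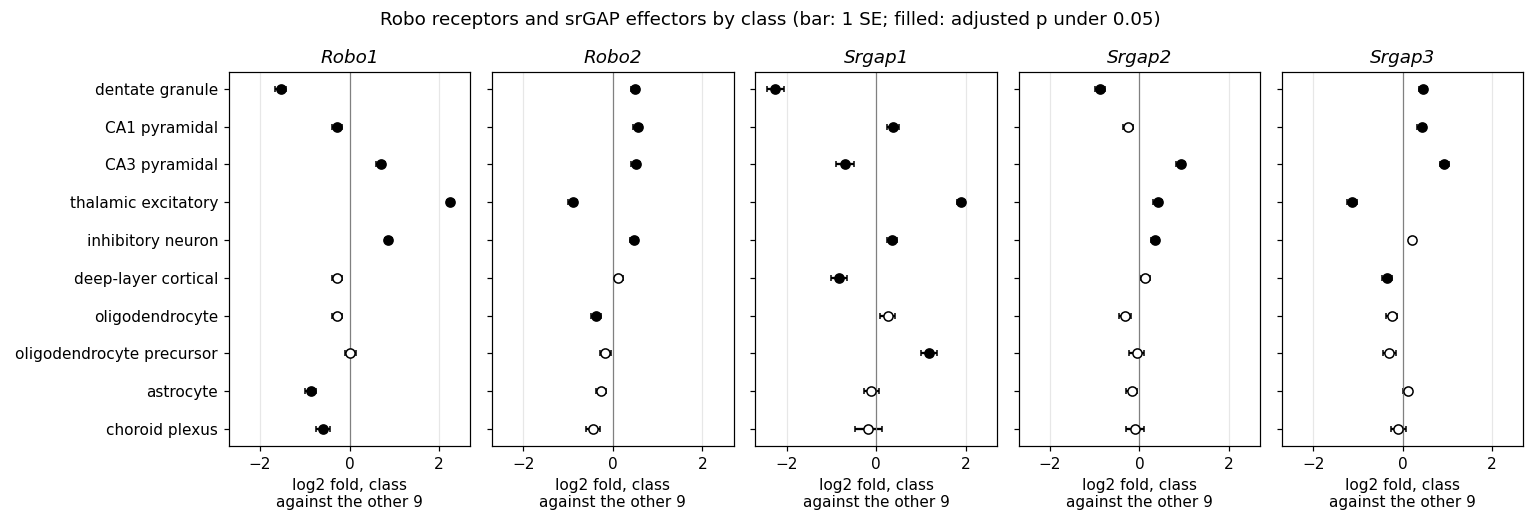
Log2 fold of each class (vertical axis) against the other 9 for Robo1, Robo2 and the 3 srGAP genes (horizontal axis; bars are 1 SE; filled points have an adjusted p under 0.05, edgeR). Robo1 and Srgap1 share their highest class, thalamic (2.25 and 1.90), and their lowest, dentate granule (-1.54 and -2.25), and differ in sign in CA3 (0.70 and -0.70).

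Other extracellular partners differed by class as well. Dcc, the netrin receptor that can form a complex with Robo1, was 1.38 (SE 0.09) higher in CA3 nuclei and 0.88 (SE 0.11) lower in thalamic nuclei. Nell2, a ligand of Robo3, was 0.57 to 0.70 higher in dentate granule, CA1 and CA3 nuclei and 0.94 (SE 0.10) lower in inhibitory nuclei. Sdc2, a heparan sulfate proteoglycan core protein, was 1.42 (SE 0.21) higher in astrocyte nuclei, and Ext1, which builds heparan sulfate chains, was 1.10 (SE 0.09) higher in CA1 nuclei. Among the remaining effectors, Enah, an actin regulator, was 0.86 (SE 0.08) higher in thalamic nuclei, and Arhgap39, also called Vilse, was 0.89 (SE 0.10) higher in CA1 and 0.79 (SE 0.11) lower in thalamic nuclei. Pak1 was 1.11 (SE 0.12) higher in oligodendrocyte nuclei.

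Training was compared next, 2 Trained against 2 Untrained libraries, by edgeR's quasi-likelihood test in each class and over all barcodes. None of 57 tests on the 6 genes passed an adjusted p of 0.05, with 14 at an unadjusted p under 0.05, 5 of them in astrocyte nuclei. Of all genes, 6.27% were under this p over all barcodes and 6.68% over the 10 classes, from 3.35% in CA3 to 14.2% in astrocyte nuclei. DESeq2 called 1 of 51 class values and 0 of 6 over all barcodes. The share of all genes called by DESeq2 is not given here. By edgeR, 0% of all genes were called over all barcodes and in oligodendrocyte precursor and choroid plexus nuclei. The share was 0.0554% in oligodendrocyte, 0.0388% in inhibitory, 0.0372% in CA3, 0.03% in astrocyte, 0.028% in CA1, 0.0279% in deep-layer cortical, 0.0124% in thalamic and 0.0114% in dentate granule nuclei, so few genes of any kind passed. The smallest adjusted p of a member was 0.135. Robo3 passed the count filter in dentate granule and CA1 nuclei only, and Slit1 in 9 of 10 classes. The p-values rest on the spread between these 4 libraries, which edgeR draws toward a trend over all genes tested. The class tests share these libraries. By sign, 25 of 29 ligand values in the classes were higher in the Trained libraries (median 0.50), as were 15 of 22 receptor values (median 0.09). Split after the values were seen, 20 of 20 ligand values outside dentate granule, CA1 and CA3 nuclei were positive (median 0.62) and 5 of 9 within these (median 0.09). The median of all genes lay between -0.02 and 0.00 by fit, and the share of all genes with a positive sign was not counted. These counts repeat the same genes over the same 4 libraries, so they are not independent, and the split was not tested. In barcodes under 400 UMIs, the log2 ratio of Trained to Untrained means was 1.25 for Slit3, 0.97 for Slit2 and 0.52 for Slit1, and 0.65 to 1.06 for the receptors; the part of this RNA in the class values was not tested.

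Over all barcodes, the largest difference was that of Slit2, at 155 and 141 TMM-scaled CPM after training against 102 and 94.6 without. The groups do not overlap. The difference was 0.59 (SE 0.13), with an unadjusted p of 0.00143 and an adjusted p of 0.792 (edgeR), and lay between 0.52 and 0.66 in every alternative, in which the adjusted p ran from 0.0288 to 0.949. The lowest came without a count filter. The libraries also differ in makeup: CA3 nuclei, high in Slit2, were 1.81% and 2.54% of barcodes after training against 0.875% and 1.66% without, and choroid plexus nuclei 0.881% and 0.754% against 0.260% and 0.652%. With the nuclei of the CA3, choroid plexus, habenula and ependymal gates left out, the difference was 0.62. As 63.2% of all barcodes passed no gate, nuclei of these kinds can remain in that sum. The part of makeup in the difference was not tested. Barcodes that passed no gate held 160 and 140 against 101 and 87.9 CPM, and barcodes under 400 UMIs held 76.8 and 57.3 against 35.9 and 32.5.

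The other genes differed by less over all barcodes. Slit1 read 175 and 206 after training against 108 and 172 without, a difference of 0.45 (SE 0.21, adjusted p = 0.794, edgeR). Without Untrained replicate 2 it was 0.81 with an adjusted p of 0.0397 (edgeR), and over all alternatives 0.15 to 0.81 with adjusted p of 0.0397 to near 1. Slit3 differed by 0.27 (SE 0.15), Robo1 by 0.21 (SE 0.16), Robo2 by 0.18 (SE 0.12) and Robo3 by -0.07 (SE 0.21). The Trained and Untrained values of Robo1 and Robo3 overlapped. The libraries differ in makeup here too. Thalamic nuclei, highest in Robo1 and lowest in Slit1, were 426 of 6019 barcodes in Trained replicate 1. They were 472 of 12206 in Trained replicate 2, and 594 of 16916 and 371 of 11969 in Untrained replicates 1 and 2. The upper-layer cortical gate held 479 nuclei in Untrained replicate 1 and 10 to 60 in the others. The part of makeup in these differences was not tested.

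**Figure D4:**
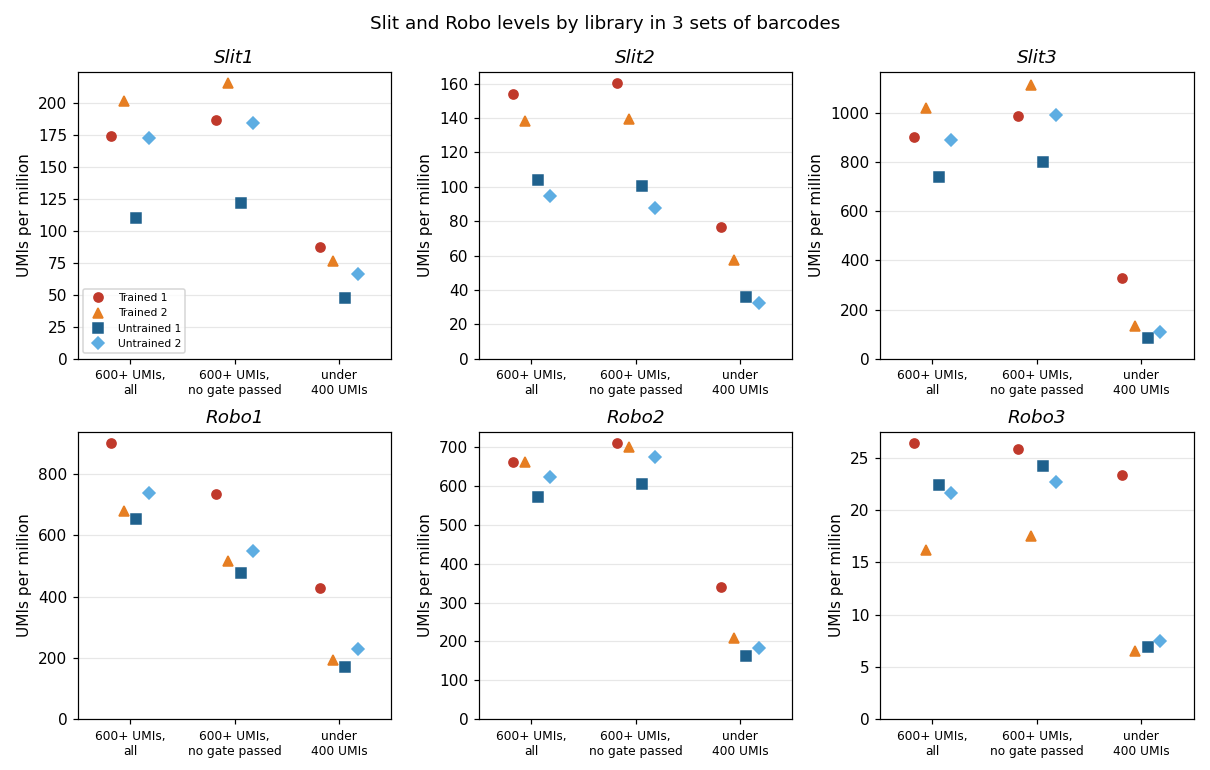
CPM (vertical axes, linear, from 0, without TMM scaling) of each gene by library in all barcodes of at least 600 UMIs, in those that passed no class gate and in barcodes under 400 UMIs. Slit2 is higher in both Trained libraries in all 3 sets, and in barcodes under 400 UMIs Trained replicate 1 is the highest library for each of the 6 genes.

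By class, the 5 genes tested in astrocyte nuclei differed by 0.62 to 1.13. Astrocyte was the class with the largest share of all genes at an unadjusted p under 0.05, 14.2% of 6669. Slit1 stood at 234 and 201 against 84.9 and 109 CPM, a difference of 1.13 (SE 0.29) with an adjusted p of 0.135 (edgeR). Slit3 stood at 1003 and 950 against 542 and 606, a difference of 0.76 (SE 0.20, adjusted p = 0.140, edgeR). DESeq2 gave Slit3 an adjusted p of 0.0405, the only member it called. Robo2 differed by 0.69 (SE 0.22), Slit2 by 0.80 (SE 0.36) and Robo1 by 0.62 (SE 0.27). Slit2 was 0.36 without Untrained replicate 1 and 1.28 without Untrained replicate 2. For Robo1, leaving out Trained replicate 1 gave 0.30, Untrained replicate 1 gave 0.37 and Trained replicate 2 gave 1.04. Without Untrained replicate 2 the difference of Slit1 was 1.29 with an adjusted p of 0.0220 (edgeR), and over all alternatives its adjusted p ran from 0.0220 to 0.468 and that of Slit3 from 0.0405 to 0.436. Astrocyte nuclei held a median of 25.1 thalamic marker UMIs per 10000 UMIs beside 71.2 of their own list, and the part of such RNA in these values was not tested.

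Inhibitory nuclei held Slit3 at 467 and 296 CPM after training against 194 and 238 without, a difference of 0.79 (SE 0.22) with an adjusted p of 0.405 (edgeR). It was 0.46 without Trained replicate 1, the highest library, and 1.11 without Trained replicate 2. Deep-layer cortical nuclei differed by 0.91 (SE 0.31) for Slit2 and 0.66 (SE 0.24) for Slit3, oligodendrocyte nuclei by 0.87 (SE 0.42) and 0.55 (SE 0.25). Without Untrained replicate 1 the deep-layer values were 0.56 and 0.43 and that of Slit3 in oligodendrocyte nuclei 0.36; without Trained replicate 2 that of Slit2 in oligodendrocyte nuclei was 1.36. Slit2 in deep-layer cortical nuclei had an adjusted p of 0.0494 without Untrained replicate 2 (edgeR; 0.552 with all libraries, 0.0494 to near 1 over the alternatives). Choroid plexus nuclei held Slit2 at 613 and 656 against 346 and 243, a difference of 1.17 (SE 0.43, adjusted p = 0.295, edgeR). These levels were scaled within the class and are not on the scale of the fit over classes. They rest on few nuclei, 53 and 92 after training and 44 and 78 without. When not thinned, 20.3% of these nuclei on average held a Slit2 UMI. In the highest class of each ligand, Slit3 differed by -0.02 and Slit1 by 0.30 in dentate granule nuclei, and Slit2 by 0.20 in CA3 nuclei. The receptor differences lay between -0.40 and 0.40 in the classes other than astrocyte and oligodendrocyte, apart from Robo3 in dentate granule nuclei (-0.48, SE 0.39).

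**Figure D5:**
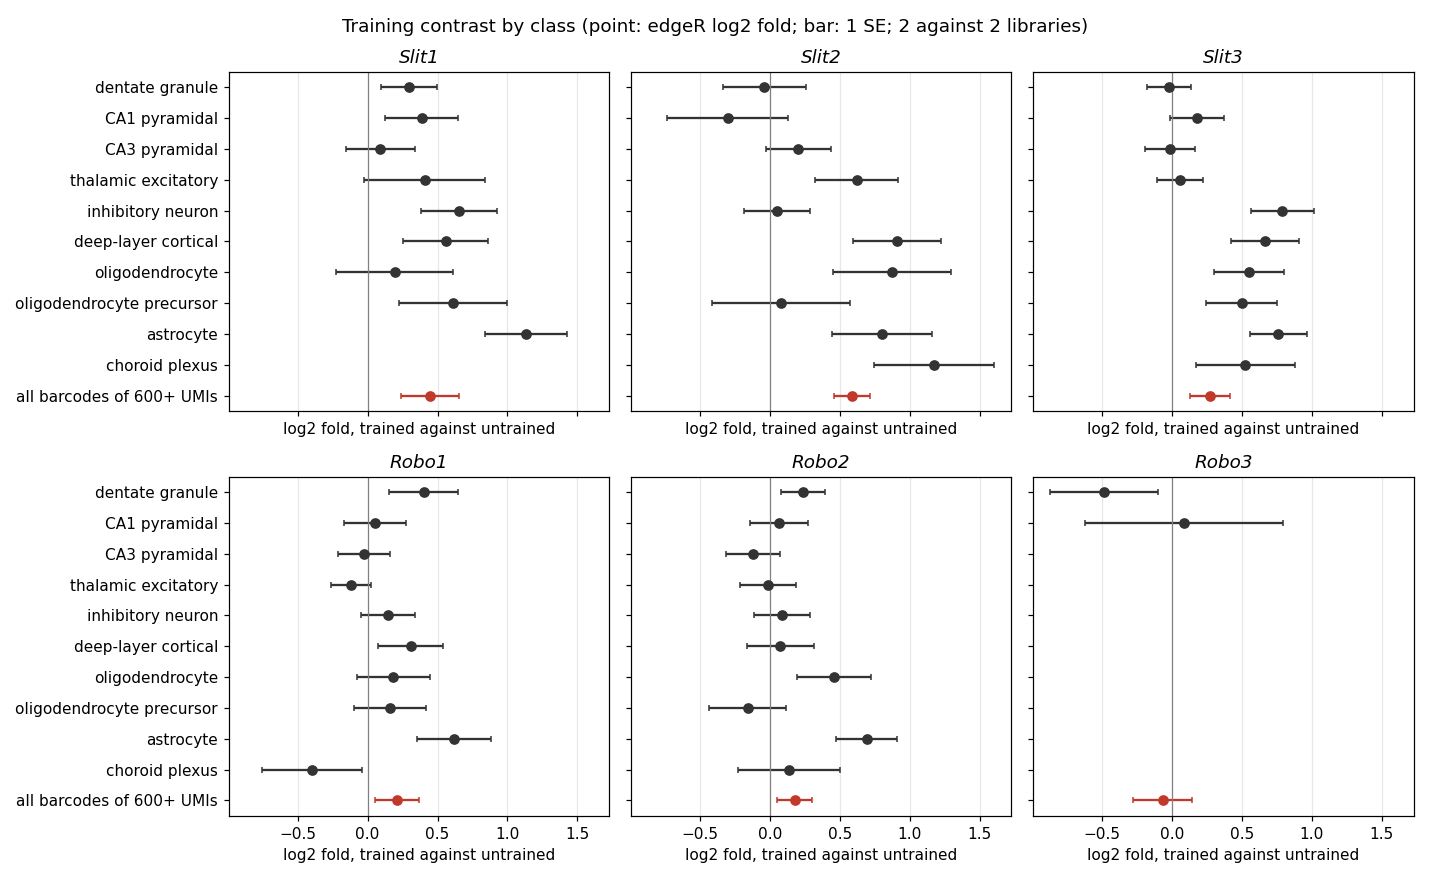
Log2 fold of Trained against Untrained libraries (horizontal axis; bars are 1 SE) for each gene in each class and over all barcodes of at least 600 UMIs (red). No point passed an adjusted p of 0.05 (edgeR); astrocyte points lie between 0.62 and 1.13 for the 5 genes tested.

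Whether the effect of training differed between classes was tested by the interaction of class and training over 10 classes. None of the 6 genes passed an adjusted p of 0.05 (edgeR), with 3 at an unadjusted p under 0.05. Of 8806 genes, 0.488% were called and 6.94% had an unadjusted p under 0.05. Slit3 came nearest, with an adjusted p of 0.0836 (edgeR). Leaving out 1 library leaves 1 library in its group. The result for Slit3 and Robo1 then depended on which library was left out, as did the number of all genes called. In the alternatives that keep all 4 libraries, Slit3 did not pass either. Its adjusted p was 0.0753 with DESeq2 size factors, 0.0634 without a count filter and 0.0729 with mixed nuclei kept (edgeR).

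Of the 47 pathway genes, none was called for training in any class or over all barcodes (edgeR), with 20 of 327 class values (6.12%) at an unadjusted p under 0.05, beside 6.68% of all genes over the same classes. Their median log2 difference by fit lay between -0.10 and 0.12, where that of all genes lay between -0.02 and 0.00. The smallest unadjusted p values of the list in the classes were those of Dcc in deep-layer cortical nuclei, with a difference of 0.72 (SE 0.23, adjusted p = 0.537, edgeR), and in oligodendrocyte nuclei, with 0.71 (SE 0.24, adjusted p = 0.277, edgeR). In astrocyte nuclei Dcc differed by 0.60 (SE 0.21).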

How the data were processed

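Nuclear RNA of 4 hippocampal samples was counted by 10x Chromium 3' v3.1. The deposited matrices hold raw UMI counts per gene and barcode, made by the authors with Cell Ranger 7.0.0 per the file headers; the submitters' processing notes name Cell Ranger 8, STAR and GRCm39, and the difference is not settled by the sources used here. The gene models of the counting are not given in the sources used here. RefSeq and GENCODE sequences and gene spans are of GRCm38, so no coordinates are printed.

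From these counts, barcodes with at least 600 UMIs were kept. A class gate needed a Poisson p under 0.01, at least 2-fold and at least 2 distinct markers; these thresholds were chosen after the data were seen. Counts were summed per class and library and fitted with edgeR 4.0.16 (R 4.3.3; TMM, filterByExpr, quasi-likelihood test, Benjamini-Hochberg adjustment), with the library as a block between classes and group alone for training. DESeq2 1.42.0, other scaling, no count filter, 1000 UMIs, a stricter gate, mixed nuclei kept, at most 5% mitochondrial UMIs and leaving out each library were alternatives. The edgeR script was tested on simulated data. Shares were thinned to 600 UMIs.

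The 6 genes were named throughout. The 5 genes most like each were taken by Pearson r among genes of at least 20 CPM, and the text names some of these; pathway genes are named among those past the test, or the smallest p. Members and lists were chosen with earlier results of these data known.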

Additional observations from a re-analysis of the deposited data

How the results depend on the processing

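For levels between classes, the number of calls was 28 to 39 of up to 66 over all alternatives (28 to 38 on leaving out each library), beside 36, with 32 by DESeq2. None of the called class values changed sign. Across the alternatives these called values stayed past the threshold in 416 refits and missed it in 44, which belong to 10 results. For training, 0 of 51 class values were called by edgeR, 1 by DESeq2 (Slit3 in astrocyte nuclei), and 0 to 2 on leaving out each library; the calls without Untrained replicate 2 were Slit1 in astrocyte and Slit2 in deep-layer cortical nuclei. Over all barcodes, 0 of 6 became 1 without a count filter (Slit2) and 0 to 1 on leaving out each library (Slit1 without Untrained replicate 2). Robo3 over all barcodes ranged from -0.40 to 0.29 on leaving out each library; 0.29, a reversed sign, came without Trained replicate 2, with an adjusted p of 0.870 (edgeR). The interaction of class and training called 0 of 6, and its result for Slit3 and Robo1 changed with the library left out. The cause of these changes was not tested. Not thinned, the shares of nuclei with a UMI were 27.6% for Slit1, 73.2% for Slit3, 49.4% for Robo2 and 3.21% for Robo3 in dentate granule nuclei, and 82.4% for Robo1 in thalamic nuclei.

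Trained and Untrained samples share replicate numbers but nothing in the labels pairs them, and the correlation of same-numbered deviations was between -0.03 and 0.08. With the replicate block, training called 0 of 51 class values and 0 of 6 over all barcodes. Between classes, where the block is the library itself, the fit with no replicate block called 29 of 60.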

Other observations

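Classes with too few nuclei in some library for a fit are given as sums over the 4 libraries, with exact Poisson 95% intervals that cover counting error only. In 176 ependymal nuclei, which line the ventricles, Slit2 stood at 304 CPM (227 to 399) from 52 UMIs, and Robo1 at 275 (202 to 366). In 172 microglial nuclei Slit2 stood at 63.5 (32.8 to 111) from 12 UMIs and Slit3 at 725 (608 to 857). In 37 mural nuclei, the contractile cells around vessels, Robo1 stood at 1066 (771 to 1436) from 43 UMIs. In 90 fibroblast nuclei Slit3 stood at 891 (714 to 1099) and Robo1 at 625 (478 to 803). In 158 endothelial nuclei Robo1 stood at 451 (355 to 565) and Robo2 at 635 (520 to 767). In 574 upper-layer cortical nuclei, Robo1 stood at 452 (403 to 505) and Slit3 at 640 (582 to 703). Of these nuclei, 479 came from Untrained replicate 1, against 10, 25 and 60 in Trained replicates 1 and 2 and Untrained replicate 2. This sum is therefore mostly that of 1 library. No test was made among these classes.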
